A study of Homo sapiens with 4 samples.

Results

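Keratins KRT1, KRT2, KRT3, KRT4, KRT10, KRT12, KRT13, KRT24 and KRT78 are genes that stratified epithelia use in their upper layers or, for KRT3 and KRT12, in the cornea. They were taken by name from the arrays' single-gene annotation, and all 9 were found among the 18417 genes measured, each on 1 probe set. Total RNA came from HCE, labelled a cell line of undifferentiated cells and grown in Occulife medium, the study being about the corneal epithelium. In one group, siKLF7, a pool of siRNAs against the zinc finger transcription factor KLF7 was transfected at 20 nM, and in the other, scramble control, a non-targeting control pool at the same dose. Cells were plated at 100000 per well of a 12-well plate and collected 48 hours after transfection, and each group had 2 arrays. Neither group carried any other treatment in the labels, and nothing says that the 2 samples of a group were separate cultures, so every p-value below refers to variation among these samples alone, possibly technical.

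Keratin filaments are built from obligate pairs of an acidic type I and a basic or neutral type II chain. Basal cells of stratified epithelia make KRT5 with KRT14, and cells that leave the basal layer switch to other pairs: KRT1 with KRT10 in epidermis, KRT4 with KRT13 in moist mucosae such as conjunctiva, and KRT3 with KRT12 in the corneal epithelium. The last pair is the classic marker of corneal epithelial identity, and mutations of either chain cause Meesmann corneal dystrophy. KRT1, KRT2, KRT3, KRT4 and KRT78 are type II genes on chromosome 12, and KRT10, KRT12, KRT13 and KRT24 are type I genes on chromosome 17.

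RefSeq promoter sequence (GRCh38.p14) was at hand for 6 of the 9 genes: KRT2, KRT3, KRT4, KRT10, KRT12 and KRT24. The 250 bases before the transcription start, read 5′ to 3′ along the gene, are shown for the corneal pair KRT12 and KRT3, for KRT10, whose difference between siKLF7 and scramble control replicate 2 was the highest of the 9, and for KRT2, whose level was nearly the same in both controls. Capitals mark the letters TATAA, the core of a TATA box, and CACCC, a sequence that Kruppel-like factors such as KLF7 can bind, or the reverse complements TTATA and GGGTG.
KRT12, chr17:40867224-40867473, minus strand: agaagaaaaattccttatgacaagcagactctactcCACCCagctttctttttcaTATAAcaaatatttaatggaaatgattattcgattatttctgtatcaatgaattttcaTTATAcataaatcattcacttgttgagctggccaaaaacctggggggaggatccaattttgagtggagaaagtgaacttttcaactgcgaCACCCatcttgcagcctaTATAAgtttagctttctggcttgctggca
KRT3, chr12:52796118-52796367, minus strand: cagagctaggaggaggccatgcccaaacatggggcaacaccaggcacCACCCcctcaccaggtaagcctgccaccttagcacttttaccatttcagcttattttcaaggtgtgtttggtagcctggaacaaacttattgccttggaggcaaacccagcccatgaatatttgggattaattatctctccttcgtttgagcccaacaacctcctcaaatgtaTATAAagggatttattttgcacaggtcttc
KRT10, chr17:40822615-40822864, minus strand: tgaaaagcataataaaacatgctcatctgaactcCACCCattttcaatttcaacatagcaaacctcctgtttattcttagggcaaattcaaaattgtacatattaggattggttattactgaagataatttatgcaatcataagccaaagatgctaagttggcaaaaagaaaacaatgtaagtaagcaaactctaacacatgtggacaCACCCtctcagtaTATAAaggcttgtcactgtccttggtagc
KRT2, chr12:52652212-52652461, minus strand: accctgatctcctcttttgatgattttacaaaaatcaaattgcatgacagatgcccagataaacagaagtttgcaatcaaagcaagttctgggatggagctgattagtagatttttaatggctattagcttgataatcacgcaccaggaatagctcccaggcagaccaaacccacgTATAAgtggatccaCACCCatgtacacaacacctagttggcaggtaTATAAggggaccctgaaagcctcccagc
TATAA was present on either strand in all 6 promoters, against 18.9% of 35116 RefSeq promoter windows of the same length. In each of the 6, a forward TATAA began 28 to 30 bases before the start. CACCC was present on either strand in all 6, against 54.7% of all windows, with 2 matches in KRT10 and in KRT12 and 1 in each of KRT2, KRT3, KRT4 and KRT24. These matches describe letters, the motifs were chosen with the array results known, and no binding was measured here. KRT2, which did not pass any test below, held both sequences as well.

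The arrays gave probe-set intensities, called signals here, which were analysed as log2(signal + 16). Over all genes, Pearson's r was 0.994 between the siKLF7 arrays and 0.990 and 0.992 between them and scramble control replicate 2, but 0.934 to 0.938 between scramble control replicate 1 and the rest. Results are therefore given both from all 4 arrays and from the 3 arrays that remain after scramble control replicate 1 is left out. KLF7, the target of the siRNA, had signals of 1492 and 1122 in the siKLF7 arrays, against 4649 and 2911 in scramble control replicates 1 and 2. Both siKLF7 values lay below both controls. By limma, KLF7 fell by 1.16 (log2, SE 0.13, adjusted p = 1.2e-09) with 3 arrays, and with 4 arrays its difference was -1.50 (SE 0.28, adjusted p = 0.639). All genes together had a median difference of -0.05 (log2) with 4 arrays and -0.04 with 3 arrays.

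The first question was how these keratins compared between siKLF7 and scramble control cells. Against scramble control replicate 2, KRT1, KRT3, KRT10, KRT12 and KRT13 rose in the siKLF7 arrays by 1.32-fold to 1.92-fold, and no member fell past the threshold. KRT2, KRT4 and KRT24 differed by 0.19 to 0.22 (log2), and KRT78 by -0.46, and these 4 did not pass. Thus 5 of 9 members rose with 3 arrays, where 0.885% of all genes rose and 0.69% fell (limma, Benjamini-Hochberg adjusted p under 0.05). The members' median difference was 0.40 with 3 arrays, against -0.04 over all genes. This fit has a single control array, so its spread comes from the siKLF7 pair and from the trend over all genes, and the lone control is assumed to vary alike. With 4 arrays 0 of 9 members passed, where 0.0% of all genes did, and at an unadjusted p under 0.05 the count was also 0 of 9, beside 1.9% of all genes higher and 3.9% lower. The median difference with 4 arrays was 3.03, against -0.05 over all genes, with signals of at most 67.7 for 7 members in scramble control replicate 1.

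**Figure D1:**
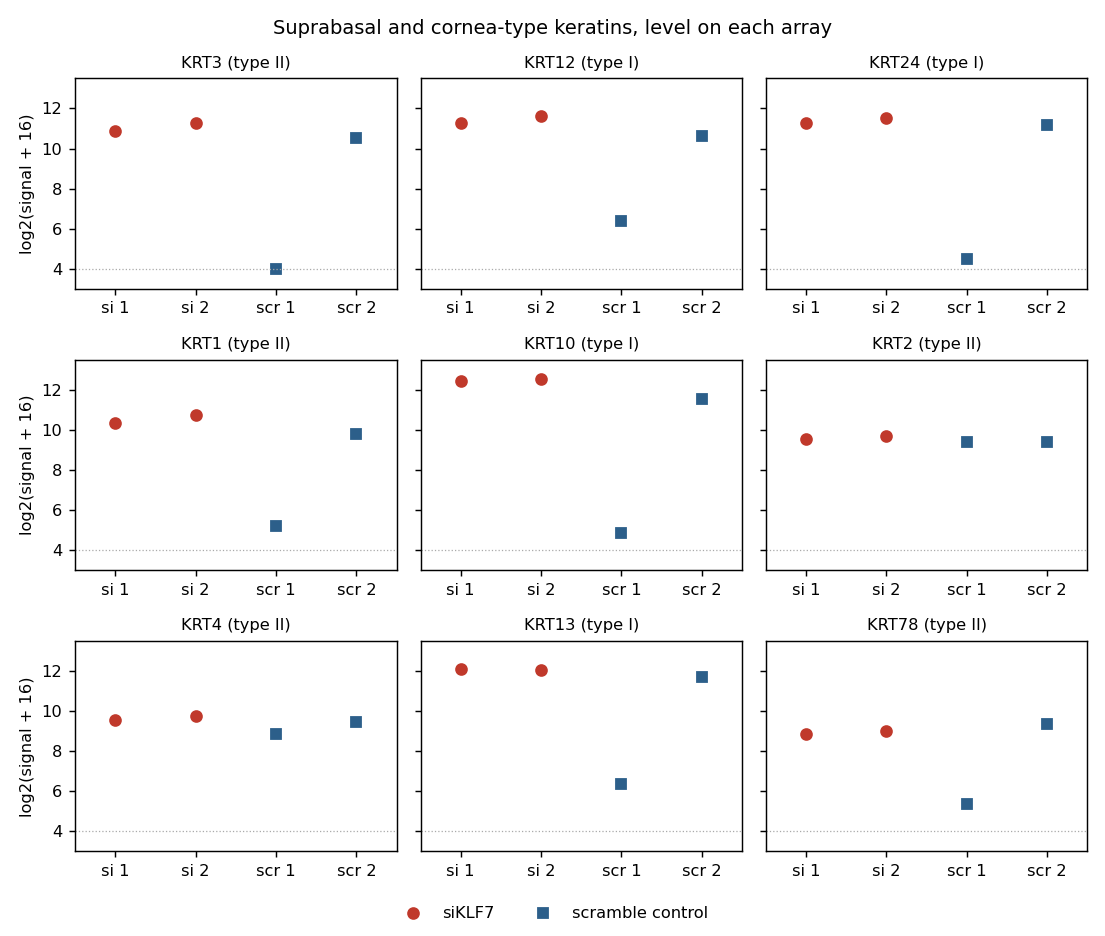
Level of each keratin on each array as log2(signal + 16), with siKLF7 replicates 1 and 2 (si, red circles) left of scramble control replicates 1 and 2 (scr, blue squares). The dotted line is the level of a signal of 0. Scramble control replicate 1 is far below the other 3 arrays for all genes but KRT2 and KRT4, and KRT78 is the gene whose siKLF7 arrays lie below scramble control replicate 2.

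Of the corneal pair, KRT12, the type I chain, had signals of 2434 and 3136 in siKLF7 replicates 1 and 2, against 67.7 and 1570 in scramble control replicates 1 and 2. Both siKLF7 arrays were above both controls, and the controls differed from each other far more than the siKLF7 arrays did. With 3 arrays KRT12 rose by 0.81 (log2, SE 0.12, limma's adjusted p = 3.2e-06), or 1.75-fold. With 4 arrays the difference was 2.93 (SE 1.41, adjusted p = 0.639).

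KRT3, the type II partner of KRT12, had signals of 1873 and 2461 in the siKLF7 arrays, against 0.00549 and 1440 in scramble control replicates 1 and 2. The order of the arrays was that of KRT12: siKLF7 replicate 2 was highest, then siKLF7 replicate 1, scramble control replicate 2 and, with practically no signal, scramble control replicate 1. With 3 arrays KRT3 rose by 0.57 (SE 0.13, limma's adjusted p = 0.0048), or 1.49-fold, and it no longer passed when the variance prior had no intensity trend (adjusted p = 0.13). With 4 arrays the difference was 3.82 (SE 2.15, adjusted p = 0.639). As the first control had almost no signal, that value depends on the pseudocount, being 5.82 with a pseudocount of 1 and 3.33 with 32.

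KRT24, a type I keratin known from cornea and differentiated keratinocytes, had signals of 2456 and 2885 in the siKLF7 arrays, against 6.26 and 2298 in scramble control replicates 1 and 2. It shared with KRT3 and KRT10 a signal below the pseudocount of 16 in scramble control replicate 1. Its difference from scramble control replicate 2 was 0.21 (SE 0.11, limma's adjusted p = 0.49), less than the gap of 0.23 between the siKLF7 arrays. Over 4 arrays it was 3.56 (SE 2.21, adjusted p = 0.639).

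Among the epidermal-type keratins, KRT10 had signals of 5508 and 5959 in the siKLF7 arrays, against 13.0 and 2976 in scramble control replicates 1 and 2. The siKLF7 arrays differed from each other by 0.11 (log2) and both lay above both controls. KRT10, the type I chain of suprabasal epidermis, rose by 0.94 with 3 arrays (SE 0.09, limma's adjusted p = 7.3e-13), or 1.92-fold, which ranked 22 among 18417 genes. With 4 arrays the difference was 4.28 (SE 2.20, adjusted p = 0.639).

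KRT1, the type II partner of KRT10, had signals of 1299 and 1687 in the siKLF7 arrays, against 21.2 and 881 in scramble control replicates 1 and 2. It rose by 0.74 with 3 arrays (SE 0.14, limma's adjusted p = 0.00052), or 1.67-fold, and stood at 3.03 with 4 arrays (SE 1.52, adjusted p = 0.639). KRT2, a type II keratin of the uppermost living layers of epidermis, had nearly level signals. They were 743 and 810 in the siKLF7 arrays, against 663 and 666 in scramble control replicates 1 and 2. The controls were within 0.01 (log2) of each other, and the siKLF7 arrays were above both, by 0.22 with either 4 arrays (SE 0.13, adjusted p = 0.639) or 3 arrays (SE 0.16, adjusted p = 0.62), which did not pass.

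Of the mucosal pair, KRT13, the type I chain, had signals of 4451 and 4205 in the siKLF7 arrays, against 66.4 and 3274 in scramble control replicates 1 and 2. It was the one member with the higher siKLF7 value in replicate 1. KRT13 rose by 0.40 with 3 arrays (SE 0.10, limma's adjusted p = 0.0077), or 1.32-fold, but did not pass without a trend in the prior (adjusted p = 0.30). With 4 arrays the difference was 3.06 (SE 1.75, adjusted p = 0.639). Its type II partner KRT4 had signals of 739 and 849 in the siKLF7 arrays, against 457 and 694 in scramble control replicates 1 and 2. Scramble control replicate 1 was lowest, at -0.71 from the mean of the others, which lay close together. The difference of 0.19 with 3 arrays (SE 0.16) was about as large as the gap of 0.20 between the siKLF7 arrays. It was 0.48 with 4 arrays (SE 0.24, adjusted p = 0.639).

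KRT78, a type II keratin of stratified epithelia, had signals of 442 and 494 in the siKLF7 arrays, against 25.4 and 650 in scramble control replicates 1 and 2. The siKLF7 arrays lay between the 2 controls, so the direction depended on the control. The difference was -0.46 with 3 arrays (SE 0.16, limma's adjusted p = 0.17) and 1.54 with 4 arrays (SE 1.32, adjusted p = 0.67), and neither passed.

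In each pair the type I chain had the larger difference from scramble control replicate 2. The values were 0.81 for KRT12 beside 0.57 for KRT3, 0.94 for KRT10 beside 0.74 for KRT1, and 0.40 for KRT13 beside 0.19 for KRT4. This order held in both siKLF7 arrays for each of the 3 pairs, but both were set against the same control array and are not independent. The difference between partners was 0.24, 0.20 and 0.21 (log2) and was not tested. A probe set's response can differ from gene to gene.

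**Figure D2:**
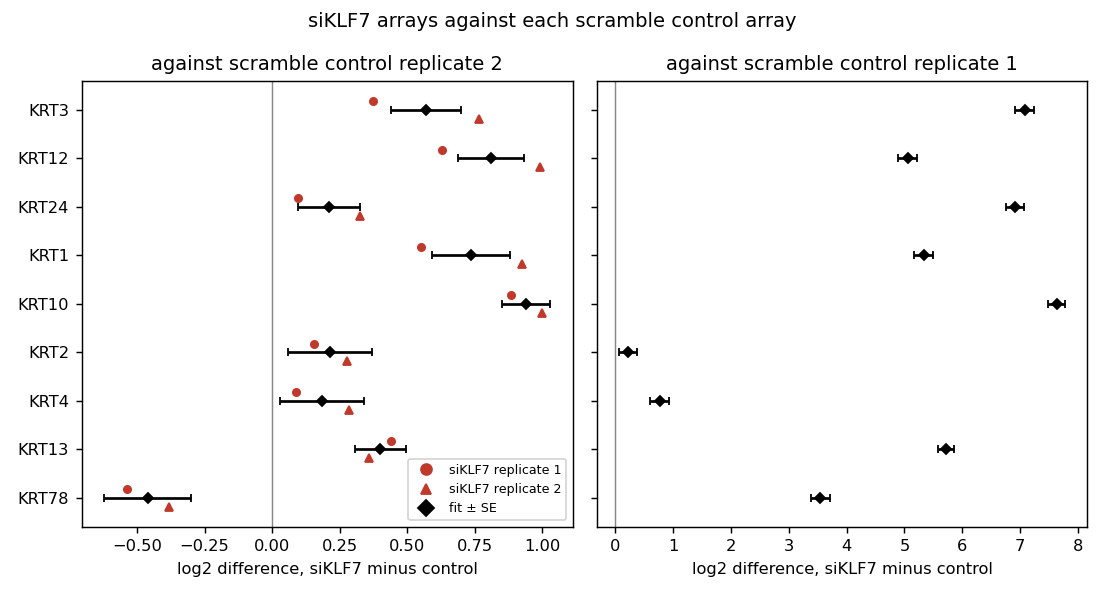
Log2 difference of the siKLF7 arrays from scramble control replicate 2 (left) and from scramble control replicate 1 (right), with different horizontal scales. Diamonds are the fitted difference with its SE from limma, and on the left the red circle and triangle are siKLF7 replicates 1 and 2. On the left KRT78 is the one gene below 0 and values run from -0.46 to 0.94, and on the right KRT2 lies at 0.22 and KRT4 at 0.77. The right-hand positions of KRT3, KRT10 and KRT24 are set by the pseudocount, as their control signal was below 16, and have no order.

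Across the 9 genes, siKLF7 replicate 2 was above siKLF7 replicate 1 for 8, where 43.7% of all genes were. The gap between the 2 siKLF7 arrays ranged from 0.08 for KRT13 to 0.39 for KRT3 (log2). For 7 members the difference from scramble control replicate 2 was larger than this gap, the exceptions being KRT4 and KRT24. Both siKLF7 arrays lay above scramble control replicate 2 for 8 of 9 members, where 29.7% of all genes did, and below it for KRT78, where 44.6% did. They lay above both controls for 8 of 9 members as well, beside 16.3% of all genes, and below both for 0 of 9, beside 28.9%. For each of those 8 the exact permutation test, two-sided, had p = 0.333, the smallest that 2 arrays against 2 allow.

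The second question was how the 2 controls compared, since the knockdown was measured against both. Scramble control replicate 1 was at least 10-fold below the mean of the other 3 arrays for 7 of 9 members, where 0.478% of all genes were that low. KRT3, KRT10 and KRT24 had signals there below the pseudocount of 16, which sets the size of their differences, so no order among them is read. The difference from that mean was -5.59 (log2) for KRT13, -5.08 for KRT1, -4.78 for KRT12 and -3.70 for KRT78. KRT4 stood at -0.71 and KRT2 at -0.15. Thus 7 members had signals of at most 67.7 on 1 of the 2 control arrays and of at least 650 on the other. Both arrays were labelled undifferentiated, and the cause of this gap was not tested. A control array that differs so much leaves the 4-array fit a standard error of 1.32 to 2.21 (log2) for these 7 genes, against 0.13 for KRT2 and 0.24 for KRT4.

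Against scramble control replicate 1 alone, in the fit without replicate 2, 8 of 9 members were higher in siKLF7 arrays and passed, where 13.4% of all genes were higher and 13.4% lower. The difference was 0.77 for KRT4 (SE 0.16, limma's adjusted p = 5.6e-05), 5.05 for KRT12 (SE 0.16), 5.33 for KRT1 (SE 0.17) and 5.72 for KRT13 (SE 0.14). For KRT3, KRT10 and KRT24 the pseudocount sets the size of the difference, and no value is compared. KRT2 did not pass (0.22, SE 0.16, adjusted p = 0.31). For KRT78 the difference was 3.55 (SE 0.16), opposite in sign to that from scramble control replicate 2. The 2 fits share the siKLF7 arrays, so their values for a gene are not independent.

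The other keratin genes measured under a single gene symbol, 39 in all, were set beside these 9. KRT6A, KRT6B, KRT6C and KRT17 were not found under a single symbol and are missing from them. With 3 arrays 2 of 39 rose and 0 fell, and with 4 arrays 0 passed, while 4 had an unadjusted p under 0.05 by limma, all of them higher. KRT15, a type I keratin of basal cells, had signals of 1990 and 1847 in the siKLF7 arrays, against 265 and 1053 in scramble control replicates 1 and 2, and rose by 0.85 with 3 arrays (adjusted p = 4.9e-06). KRT19, found in simple epithelia and conjunctiva, had signals of 3273 and 2848 in the siKLF7 arrays, against 3456 and 2097 in the same controls. It rose by 0.54 against scramble control replicate 2 (adjusted p = 0.0012) but not without a trend in the prior (adjusted p = 0.12), and its groups overlapped over 4 arrays. KRT8, a simple-epithelial keratin, stood at 0.36 (adjusted p = 0.080) and the hair keratin KRT35 at 0.51 (adjusted p = 0.10) with 3 arrays. With 4 arrays KRT35 stood at 0.55, KRT222 at 0.42 and KRT9 at 0.41, each at an adjusted p of 0.639. The median difference of the 39 was -0.03 with 3 arrays and 0.05 with 4 arrays.

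KRT5 and KRT14, the main keratin pair of the basal layer, had signals of at least 8379 on every array. KRT5 had signals of 13229 and 13575 in the siKLF7 arrays, against 11828 and 12764 in scramble control replicates 1 and 2, and KRT14 had 12126 and 13103, against 8379 and 11810. These and the next 3 genes were named after their values were seen. KRT16, a keratin of activated epithelium, had 7352 and 7196 in the siKLF7 arrays, against 386 and 7247 in the controls. KRT23 had 745 and 907, against 29.4 and 859, so a low value in scramble control replicate 1 was also seen outside the 9. KRT7, a simple-epithelial keratin, was highest in that array, at 2048 and 2050 in the siKLF7 arrays, against 6263 and 2257 in the controls.

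**Figure D3:**
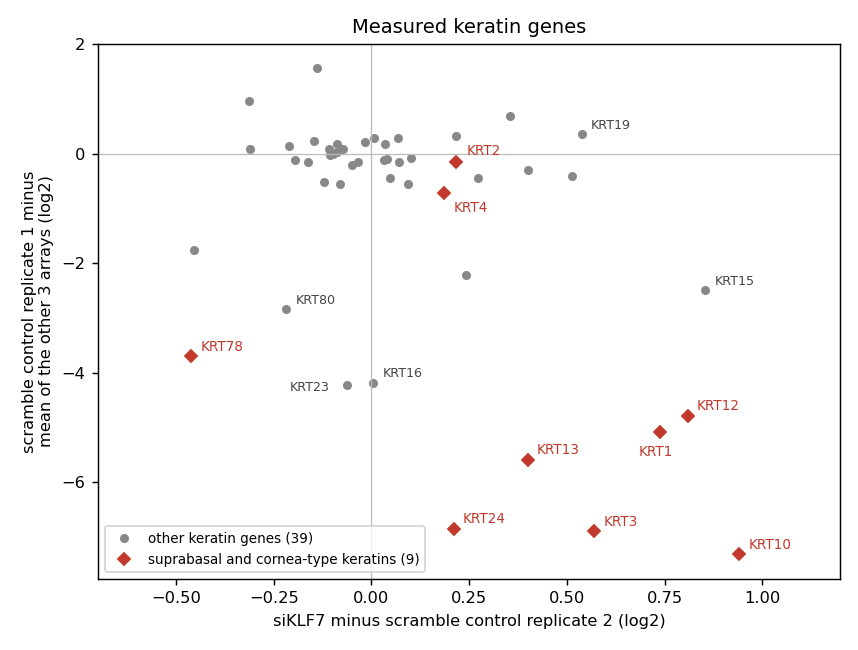
Keratin genes measured under a single gene symbol, so without KRT6A, KRT6B, KRT6C and KRT17. The log2 difference of siKLF7 from scramble control replicate 2 runs across. The log2 difference of scramble control replicate 1 from the mean of the other 3 arrays runs up. Red diamonds are the 9 suprabasal and cornea-type keratins and grey circles the other 39. Of the 9, 7 lie at or below -3.70 on the vertical axis, with the heights of KRT3, KRT10 and KRT24 set by the pseudocount, while most other keratins lie near 0, and KRT15 and KRT19 are the grey points that rose.

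By Euclidean distance between log2 levels over the 4 arrays, each gene centred on its own mean, the gene nearest to KRT12 was ALDH3A1, a corneal crystallin enzyme, at a distance of 0.52. Next came EGLN3, an oxygen-sensing prolyl hydroxylase, at 0.67, and CASP14, a protease of cornifying keratinocytes, at 0.70. The gene nearest to KRT10 was DSG1, a desmosomal cadherin of upper epithelial layers, at 0.43, followed by KRTDAP, a secreted keratinocyte differentiation protein, at 1.03, and MT1H, a metallothionein whose near-identical copies an array may not separate, at 1.08. DSG1 had signals of 4324 and 4485 in the siKLF7 arrays, against 7.25 and 3258 in scramble control replicates 1 and 2. ALDH3A1 had 1064 and 1358, against 40.8 and 763. All 6 genes had their lowest level in scramble control replicate 1. This follows from the choice, as KRT12 and KRT10 were themselves far lowest there. KRT10, DSG1 and KRTDAP had signals of 13.0, 7.25 and 5.6 in that array, so their distances depend on the pseudocount. Against scramble control replicate 2, DSG1 was higher in both siKLF7 arrays and KRTDAP little higher (1847 and 1928, against 1745). MT1H was lower in both (6350 and 4909, against 6913). For a correlation 4 arrays are too few. A set of 23 sex-linked genes, not all such genes, was left out of this ranking.

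Keratin filaments are anchored at desmosomes and bundled by filaggrin in the upper layers, and 19 genes of those structures and of the cornified envelope were measured. With 3 arrays 4 rose and 2 fell, and their median difference was -0.13. DSC1, a desmosomal cadherin, rose by 1.14, CASP14 by 0.98, FLG, the filaggrin gene, by 0.76 and DSG1 by 0.43 (limma's adjusted p at most 0.0026). TGM3 and TGM1, transglutaminases that crosslink the cornified envelope, fell by 0.97 (adjusted p = 3.3e-05) and 0.38 (adjusted p = 0.0072). DSG1 and TGM1 did not pass without a trend in the prior (adjusted p = 0.25 and 0.33). With 4 arrays 0 of 19 passed, TGM3 stood at 0.98 and TGM1 at 1.31, and 2 of 19, DSC1 and FLG, had an unadjusted p under 0.05. TCHH, the trichohyalin gene, had 303 and 293 in the siKLF7 arrays, against 350 and 371 in the controls, and its difference of -0.26 did not pass (adjusted p = 0.639). As for KRT78, the sign for the transglutaminases depended on the control array. TGM1 was named after its value was seen.

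Of 23 regulators of epithelial and corneal differentiation, 1 fell and 0 rose with 3 arrays, and 0 passed with 4 arrays, where OVOL2 alone had an unadjusted p under 0.05. PRDM1, a transcriptional repressor, had signals of 252 and 262 in the siKLF7 arrays, against 221 and 452 in scramble control replicates 1 and 2. It fell by 0.78 against scramble control replicate 2 (SE 0.16, limma's adjusted p = 0.0014), but its siKLF7 arrays lay above the other control, and with 4 arrays it stood at -0.29 (adjusted p = 0.74). PAX6, a master regulator of eye development that is known to activate KRT12, had signals of 2529 and 2629 in the siKLF7 arrays, against 1310 and 2128 in scramble control replicates 1 and 2. Both siKLF7 arrays were above both controls, but neither the difference of 0.27 from the 3-array fit (adjusted p = 0.30) nor that of 0.62 from the 4-array fit (adjusted p = 0.639) passed. ELF3, an epithelial ETS factor, stood at -0.54 (adjusted p = 0.082) and OVOL1 at 0.30 (adjusted p = 0.46) with 3 arrays. OVOL2, MAF and RUNX1 stood at -0.39, 0.44 and -0.28 with 4 arrays (adjusted p = 0.639).

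Markers of cell types were checked on the same arrays. Markers of epithelium in general, 5 genes, summed to 12445 and 12134 in the siKLF7 arrays, against 8867 and 11881 in scramble control replicates 1 and 2. CDH1, the epithelial cadherin, had 3280 and 3161 in the siKLF7 arrays, against 3939 and 3262 in the controls. The other 4 were lowest in scramble control replicate 1, among them EPCAM, an epithelial adhesion molecule, with 278 and 247 in the siKLF7 arrays, against 95.1 and 267 in the controls. Corneal markers as a list, 8 genes that include KRT3, KRT12, KRT24 and KRT78, summed to 17351 and 19182 in the siKLF7 arrays, against 4306 and 14329 in the same controls. For the corneal list, 6 of 8 genes were at least 2-fold lower in scramble control replicate 1 than in the mean of the other 3 arrays, beside 2.99% of all genes. They include KRT3, KRT12, KRT24 and KRT78, so this count largely repeats the result for the keratins. Of the listed genes that are no members, ALDH3A1 (-4.21, log2) and CLU (-4.18) were that low, and PAX6 (-0.88) and TKT (-0.78) were not. KRT3, which defines this list together with KRT12, was near 0 there. Low values in that array were not confined to the corneal list. At least 2-fold lower were 4 of 6 epidermal, 4 of 8 conjunctival, 2 of 10 basal and limbal and 1 of 5 general epithelial markers. The epidermal and conjunctival lists also hold members.

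Fibroblast, keratocyte and mesenchymal markers, 20 genes, summed to 12184 and 11920 in the siKLF7 arrays, against 20767 and 10848 in scramble control replicates 1 and 2. SNAI2 was the largest part of each sum, with 7205 and 7063 in the siKLF7 arrays, against 8634 and 6400 in the same controls. In scramble control replicate 1, 4 of the 20 were at least 2-fold above the mean of the other arrays, beside 2.11% of all genes, and 0 at least 2-fold below. The list's median difference from that mean was 0.19 (log2), against 0.04 over all genes. ACTA2 and LUM went the other way, at -0.96 and -0.73, as did COL5A1 and CDH2. FN1, the fibronectin gene, had 596 and 612 in the siKLF7 arrays, against 6544 and 543 in the controls. POSTN, a matrix protein of these cells, had 77.4 and 44.1, against 678 and 25.4. The stromal markers KERA and DCN stayed at or below 48.3 on all arrays. Both siKLF7 arrays lay above scramble control replicate 2 for LUM and for POSTN, by 0.64 and 0.86 (log2) on average. LUM was dim as well, with 63.5 and 62.4 in the siKLF7 arrays, against 25.1 and 34.6 in the controls. For POSTN, siKLF7 replicate 2 minus replicate 1 was -0.64. The summed levels of melanocyte, endothelial and leukocyte markers ranged over the 4 arrays from 862 to 989, 1164 to 1480 and 1534 to 2036. The part of any other cell type in the keratin differences was not tested, and in bulk RNA fewer cells with a keratin and less of its RNA per cell cannot be told apart.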

How the data were processed

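Total RNA of 4 HCE samples, 2 siKLF7 and 2 scramble control, was hybridised to whole-transcript arrays. The authors deposited 1 table of probe-set intensity values on a linear scale, for which the submitters' processing notes name Affymetrix Expression Console 1.1.1 with PLIER 2.0. The sources used here do not say how arrays were normalized to each other. The median signal over 33297 features was 190 and 185 in the siKLF7 arrays and 187 and 194 in scramble control replicates 1 and 2.

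Features with 1 annotated gene symbol (19460) were kept, taking the highest mean log2 level where a gene had several, which left 18417 genes. Log2(signal + 16) was modelled in limma's lmFit and eBayes, the prior following an intensity trend (limma 3.58.1, R 4.3.3), Benjamini-Hochberg adjusted over all genes, threshold 0.05. The 4-array fit had 2 residual and 2.63 prior degrees of freedom, and the 3-array fit 1 and 74.2. The number of arrays limits precision, and the pseudocount shrinks differences of dim genes. Figures used matplotlib 3.10.9.

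The members, gene lists, motifs and the 3-array fit were chosen with earlier results of these data known. The 9 keratins and KLF7 were always named, from each further list up to 4 genes with the smallest limma p with 3 or 4 arrays, and the 3 genes nearest to KRT12 and to KRT10, other genes being said to be outside this rule. Marker genes are given as values. Replicate numbers were not taken as pairs. Deviations of same-numbered arrays from their group means correlated at -0.04 across genes. That value cannot show whether samples were paired, as scramble control replicate 1 stands apart and sets the deviations of its group. Checking for sample mix-ups, 1 array differed from the rest.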

Additional observations from a re-analysis of the deposited data

How the results depend on the processing

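With 4 arrays, leaving out scramble control replicate 1 or 2 gave 5 or 8 called members (main 0), 2 or 17 other keratins, and 290 or 4935 genes in all. The members' median difference was then 0.40 or 5.33 (main 3.03), KLF7 stood at -1.16 or -1.83 (-1.50), and KRT78 at -0.46 or 3.55 (1.54), the first reversed in sign. Without siKLF7 replicate 1 or 2 the median was 3.11 or 2.85 and 0 genes were called. Median centring, quantile normalization, a pseudocount of 1 or 32, the mean of features, dropping the dimmest 25% or 50% of genes and a robust or trend-free prior kept direction and side of the threshold for all 9 members, as did the replicate block, with 0 members called, a median of 3.03 and adjusted p = 0.73 for KLF7. With 3 arrays, 3 members were called with no trend in the prior (main 5), where KRT3 (0.57) and KRT13 (0.40) no longer passed, as were 1 other keratin (main 2) and 172 genes in all (main 290). Quantile normalization gave 484 genes and 4 other keratins, and median centring 4 other keratins. For KRT1, KRT10 and KRT12 the adjusted p was also far higher with no trend in the prior, though still under 0.05. The causes of these changes were not tested. Of 81 member values under these 9 other settings with 3 arrays, 79 kept direction and side of the threshold. Leaving out a siKLF7 array there leaves no residual degrees of freedom, so no test was made. The lowest and highest adjusted p over the 3-array settings were 8.0e-04 and 0.30 for KRT13, and 6.7e-05 and 0.13 for KRT3. Signals are not calibrated between genes, and whether a dim probe set is above background was not measured here.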
